A study of Sus scrofa with 48 samples.

Results

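The miRNA make-up of seminal plasma extracellular vesicles (SPEVs) was described for boars with high sperm motility, the H group. Members were chosen by label: of the 48 samples of the series, the 12 small RNA libraries whose phenotype was high sperm motility were used. Each library came from a different boar, and all were sexually mature male Yorkshire boars. The labels give ages only for the series as a whole, 14 to 36 months, a range that also covers boars not used here. The series also holds small RNA libraries of boars with low sperm motility and long RNA libraries, which were not compared here. By the study's methods, semen was collected as the sperm-rich fraction, and the share of each gland in that fraction was not measured. SPEVs were isolated from seminal plasma by ultracentrifugation and filtration, so a library pools vesicles of different glands and cells of 1 boar. The labels give no batch or date. The deposited values are unnormalized read numbers of 345 mature pig miRNAs. The totals lay between 4189358 reads (library H5) and 9148136 reads (H12), with a median of 6145563. Levels are given as reads scaled to a column total of 1000000 miRNA reads (CPM), so that each level is a share of the miRNA reads and not an amount per vesicle. Library preparation captures some miRNAs better than others, so levels of different miRNAs compare only roughly.

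A mature miRNA is a short RNA cut from a hairpin precursor that guides Argonaute proteins to partly complementary sites in mRNAs. Its seed, bases 2 to 8 from the 5′ end, contributes most to target choice, so that miRNAs with the same seed form a family with overlapping targets. Extracellular vesicles carry miRNAs of the cells that shed them, and most seminal plasma comes from epithelia of the epididymis, the seminal vesicles, the prostate and the bulbourethral glands. The let-7 family is known for its high level in differentiated cells, and the miR-200 family and miR-141 for their role in keeping the epithelial state.

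Libraries H7 and H10 stood apart from the others. In a principal component analysis of log2(CPM + 1) over the 114 miRNAs with a mean of at least 100 CPM, with miRNAs and libraries centred at 0, the first component held 42.8% of the variance. H10 and H7 lay at 5.97 and 4.81 on it, H6 followed at 2.28, and H11 and H9 lay at the other end with -4.45 and -4.25. The next component held 21.96% and followed the numbers that the labels give to the libraries. H1 to H6 were all negative on it, from -3.99 (H4) to -0.871 (H5), and H7 to H12 all positive, from 0.853 (H11) to 4.54 (H7). This held with only the miRNAs centred, both by column totals and with TMM factors, alternatives chosen after the data were seen. With libraries centred as well, TMM factors could hardly change it, because that centring removes nearly all of a library's scaling. What the order of the numbers stands for is not stated, and its part in the spread was not tested. H10 had 25 and H7 had 20 of the 114 miRNAs more than 2-fold above the median of the 12 libraries, against 0 to 8 in each other library. H9 had the most miRNAs more than 2-fold below the median, with 16. By the median absolute log2 distance of a library from the median profile, H7 (0.503), H9 (0.459) and H10 (0.447) were farthest and H2 (0.145) was closest, so H9 lay as far out as H10. These counts depend on the scaling, since the TMM factors were 1.35 in H7 and 1.34 in H10 against 0.667 in H9. With TMM factors, H10 had 16 and H7 had 6 miRNAs more than 2-fold above the median, while H9 had 7, where it had 2 by column totals. More than 2-fold below the median were 7 in H7, 5 in H10 and 2 in H9, against 2, 0 and 16 by column totals. The TMM counts were added after the data were seen. By distance, with these factors H7 (0.421) and H10 (0.402) were farthest from the median profile, followed by H11 (0.315), while H9 was at 0.2495. Several results that rest on H7 and H10 are therefore also given without them, an alternative chosen after the data were seen.

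Most of the miRNAs in the table were found in SPEVs of the H group. On average 283 ± 12.8 (SD, n = 12) of the 345 miRNAs had at least 1 read in a library, between 261 in H4 and 305 in H7 and H10. The mean was 278.5 without H7 and H10. In all, 231 miRNAs (67.0%) had reads in every library, 100 (29.0%) in 1 to 11 libraries and 14 (4.06%) in none. These classes differed greatly in level. The miRNAs found in every library held 99.99% of the reads, and the most abundant of the miRNAs missing from some library, miR-331-5p, had a mean of 10.1 CPM. It had reads in every library but H4. Of the 14 miRNAs with reads in a single library, none had more than 11 reads. At a floor of 3 reads, a library could show a level of 0.328 CPM (H12) to 0.716 CPM (H5). These floors cover counting error only, since PCR copies add reads without adding molecules. The libraries were made with the QIAseq miRNA kit, which adds molecular identifiers, but whether reads were collapsed by them is not stated, so a count may be of reads or of molecules. The 14 miRNAs without a read, among them miR-124a, miR-217, miR-371-5p and miR-376a-3p, were thus not detectable at this depth.

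Few miRNAs were abundant. A mean of at least 100 CPM was reached by 114 miRNAs, at least 1000 CPM by 47, at least 10000 CPM by 19 and at least 100000 CPM by 1, let-7c. The median over the 331 miRNAs with reads was 23.8 CPM. In every single library, 99 miRNAs reached 100 CPM, 33 reached 1000 CPM and 13 reached 10000 CPM.

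Reads were concentrated in a small set of miRNAs. The most abundant miRNA, let-7c, held 29.5% ± 4.99 of the reads (SD, n = 12), the 3 most abundant 45.4% ± 7.98, the 10 most abundant 71.4% ± 4.52 and the 20 most abundant 89.4% ± 1.88. The share of the 10 most abundant was lowest in H6 (64.8%), had a median of 71.9% and was highest in H8 (78.1%). Below rank 100, 0.562% of the reads remained. Counted within each library, 3 to 7 miRNAs were enough for 50% of the reads, and 18 (H8 and H9) to 26 (H10) for 90%, with a mean of 21.3 ± 2.57 (SD, n = 12). By the number needed for 90%, the libraries with the least concentrated reads were H10, H7 and H6. By the share of the 10 most abundant they were H6, H10 (65.6%), H5 (67.2%) and H4 (68.2%), with H7 at 69.0%. The effective number of miRNAs, the exponential of the Shannon entropy of the shares, was 27.4 in H10, 26.0 in H7 and 23.1 in H6, against 14.8 in H8, with a mean of 19.7 ± 4.03 (SD, n = 12). Without let-7c in the total, the next 10 miRNAs held 63.5% of the remaining reads.

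The set of the first 20 miRNAs was nearly the same in all libraries, while shorter sets and the order were not. Of the 23 miRNAs that ranked among the first 20 in any library, 18 did so in every library. Among the first 10 the corresponding numbers were 5 of 15, and among the first 3 they were 2 of 5. The 5 miRNAs that reached ranks 1 to 3 in a library were let-7c, let-7a, miR-148a-3p, let-7f-5p and miR-21-5p. let-7c was at rank 1 in all 12 libraries. At rank 2 stood let-7a in H1 to H7, miR-148a-3p in H8, H9, H11 and H12, and miR-21-5p in H10.

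let-7c led by a wide margin. Its level was lowest in H10 (193240 CPM), had a median of 307343 CPM and was highest in H8 (352959 CPM), with a mean of 294742 ± 49913 CPM (SD, n = 12). H10 and H7 (200921 CPM) were well below the other 10 libraries, which lay between 282829 and 352959 CPM. With H7 and H10 left out, the mean was 314274 ± 22322 CPM (SD, n = 10), and its coefficient of variation fell from 16.9% to 7.10%. let-7a followed at 84567 ± 12580 CPM (SD, n = 12), from 60657 CPM in H10 over a median of 86622 CPM to 101342 CPM in H12. The level of let-7c was 3.50 ± 0.487 times that of let-7a (SD, n = 12), between 2.69 in H7 and 4.28 in H4, so that the order of these members was the same in all 12 libraries.

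**Figure D1:**
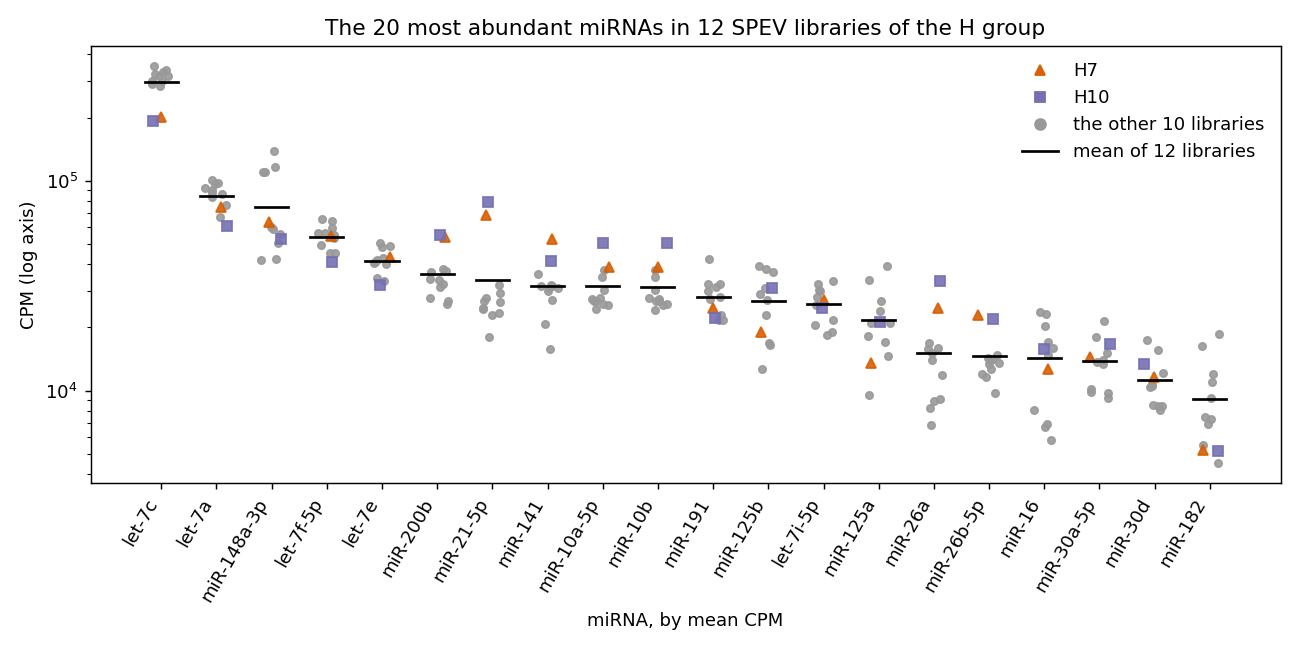
CPM (log axis) of the 20 miRNAs with the highest mean, by rank; each point is 1 of the 12 H libraries and the black line is their mean. H7 (triangle) and H10 (square) lie lowest for let-7c, at 200921 and 193240 CPM, and highest for miR-21-5p, at 68569 and 78785 CPM.

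miR-148a-3p, a miRNA known from liver, immune cells and milk vesicles, varied more than its neighbours in rank. Its level was lowest in H5 (41962 CPM), had a median of 59288 CPM and was highest in H12 (138076 CPM), with a mean of 74930 ± 33513 CPM (SD, n = 12). The values fell into separate ranges. H8, H9, H11 and H12 had 110434, 115810, 109563 and 138076 CPM, and the other 8 libraries, H1 to H7 and H10, had 41962 to 63636 CPM. miR-148a-3p was above let-7f-5p in 8 of 12 libraries and below let-7a in 8 of 12. The next ranks were close together. let-7f-5p (53869 ± 7549 CPM) was above let-7e (41482 ± 6043 CPM) in all 12 libraries, but let-7e was above miR-200b (36084 ± 9612 CPM) in 9 of 12, miR-200b above miR-21-5p (33562 ± 19169 CPM) in 8 of 12, and miR-21-5p above miR-141 (31677 ± 9307 CPM) in 5 of 12 (SD, n = 12 each). Their order by mean was thus within the spread between libraries.

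miR-21-5p, one of the most widely expressed miRNAs and often raised in inflamed or growing tissue, owed its rank to the libraries that stood apart. It was lowest in H4 (17964 CPM), had a median of 26544 CPM and reached 68569 CPM in H7 and 78785 CPM in H10. The highest level in another library was 31701 CPM in H1. With H7 and H10 left out it had 25538 ± 3767 CPM (SD, n = 10) and its rank was 13 instead of 7. The rank of miR-26a was then 18 instead of 15. The 20 most abundant miRNAs were the same without these libraries, and 9 of the 10 most abundant were. The abundant miRNAs below miR-141 were miR-10a-5p and miR-10b, which derive from the HOX gene clusters, and miR-191 (27974 ± 6036 CPM), miR-125b (26658 ± 9055 CPM), let-7i-5p (25890 ± 5088 CPM) and miR-125a (21641 ± 8383 CPM). They were followed by miR-26a (15041 ± 7548 CPM), miR-26b-5p (14595 ± 3915 CPM), miR-16 (14259 ± 6349 CPM), miR-30a-5p (13835 ± 3740 CPM), miR-30d (11289 ± 2974 CPM) and miR-182 (9129 ± 4590 CPM; SD, n = 12 for each).

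Mature sequences were taken from RefSeq on Sscrofa11.1 and matched to 286 of the 345 miRNAs, which held 91.4% of the reads. The 286 had 227 different seeds, of which 37 were shared by 2 or more miRNAs. A miRNA without a matched sequence, such as miR-200b, miR-141 or miR-26b-5p, was treated as a family of its own. The leading family had the let-7 seed and 8 members. It held 50.6% ± 6.53 of the reads (SD, n = 12) and was the largest family in all 12 libraries. Its share was lowest in H10 (35.9%) and H7 (41.0%), had a median of 52.7% and was highest in H2 (57.3%). The mean was 53.0% without H7 and H10. With let-7c left out of the total, the same seed still led with 30.2% of the remaining reads. The members are shown with the seed, bases 2 to 8, in capitals, because they differ in few positions outside it while their levels differ by orders of magnitude.
let-7c: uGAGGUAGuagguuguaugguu
let-7a: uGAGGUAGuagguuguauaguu
let-7f-5p: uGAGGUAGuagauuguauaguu
let-7e: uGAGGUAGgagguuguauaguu
let-7i-5p: uGAGGUAGuaguuugugcu
let-7g: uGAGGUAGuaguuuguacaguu
let-7d-5p: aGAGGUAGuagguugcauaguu
miR-98: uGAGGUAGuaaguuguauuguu

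Within the let-7 family, let-7c held 58.0% ± 4.17 of the reads, let-7a 16.7% ± 1.41, let-7f-5p 10.7% ± 1.21, let-7e 8.24% ± 1.03 and let-7i-5p 5.20% ± 1.22 (SD, n = 12 each). let-7g held 0.847%, let-7d-5p 0.174% and miR-98 0.140%. The minor members did not follow the major ones. let-7g, let-7d-5p and miR-98 were highest in H7, at 6974, 1725 and 1250 CPM, where let-7c was at its second lowest level. let-7c was read from chromosome 13, 181303224 to 181303245 on the plus strand, in an intron of the uncharacterized gene LOC106508546. let-7a has a copy on chromosome 3 (43465677 to 43465698, plus strand) and one on chromosome 9 (49152637 to 49152658, minus strand), both intergenic. let-7f-5p has an intergenic copy on chromosome 3 (43466044 to 43466065, plus strand) and one in an intron of HUWE1 on chromosome X (46303299 to 46303320, minus strand). Reads of miRNAs with several copies cannot be assigned to one of them. let-7e lies on chromosome 6 (58332091 to 58332112, minus strand), let-7i-5p on chromosome 5 (27252807 to 27252825, plus strand), both intergenic, and let-7g in an intron of WDR82 on chromosome 13 (34406195 to 34406216, minus strand).

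**Figure D2:**
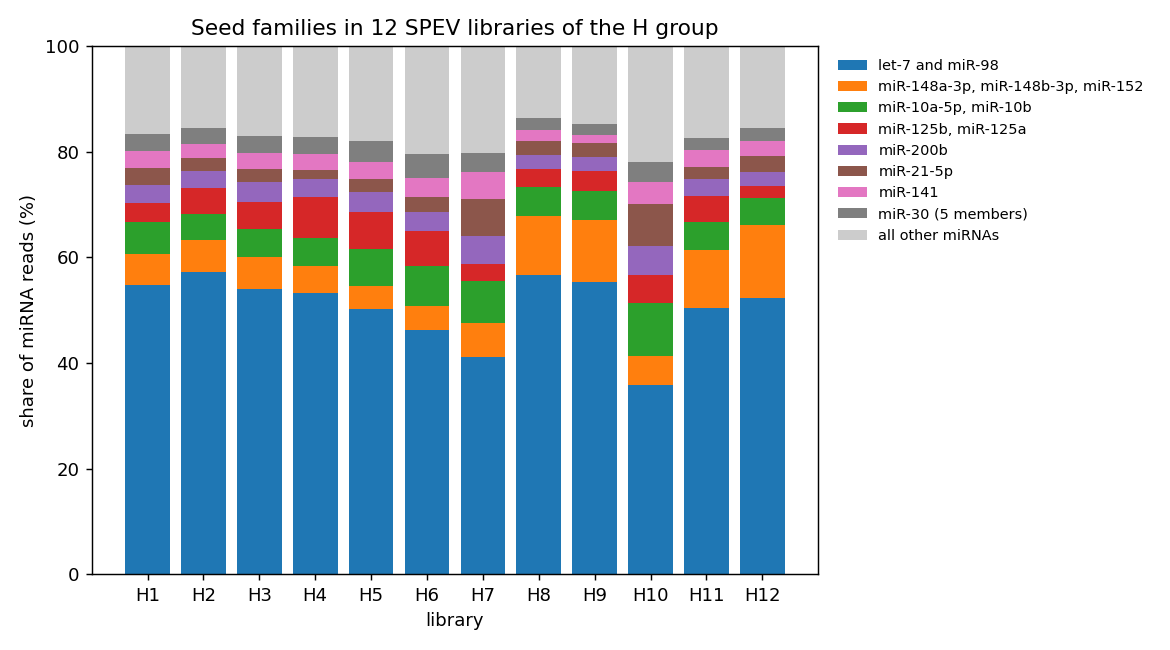
Share of miRNA reads (%) in each of the 12 H libraries, stacked by seed family for the 8 families with the highest mean share; miR-200b and miR-141 have no matched sequence and stand alone. The let-7 family holds between 35.9% (H10) and 57.3% (H2).

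The family ranked next was that of miR-148a-3p, miR-148b-3p and miR-152, whose known targets include DNA methyltransferase transcripts. It held 7.64% ± 3.32 of the reads (SD, n = 12), from 4.38% in H5 over a median of 6.07% to 13.9% in H12. Nearly all of it was miR-148a-3p, since miR-148b-3p had a mean of 1194 CPM. miR-148a-3p lies on chromosome 18 (46415256 to 46415277, plus strand) in no annotated gene, whereas miR-148b-3p and miR-152 lie in introns of the coatomer genes COPZ1 on chromosome 5 and COPZ2 on chromosome 12. The sequences show that the members share the seed and part of the 3′ end.
miR-148a-3p: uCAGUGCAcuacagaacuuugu
miR-148b-3p: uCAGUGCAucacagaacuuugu
miR-152: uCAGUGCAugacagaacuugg

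The miR-10 family held 6.27% ± 1.56 (SD, n = 12), between 4.87% in H2 and 10.1% in H10, and 5.74% without H7 and H10. Its members had nearly the same counts, and when every near-identical group was reduced to 1 miRNA it held 3.28% of the remaining reads and its rank was 7 instead of 3. The miR-125 family, which shares an ancestral cluster with let-7, held 4.83% ± 1.66 (SD, n = 12), between 2.22% in H12 and 7.71% in H4. Here the extremes fell in other libraries than for let-7. miR-125a was highest in H4 (39047 CPM) and lowest in H12 (9505 CPM), with a median of 21042 CPM. miR-125b was highest in H6 (39427 CPM) and lowest in H12 (12665 CPM), with a median of 27948 CPM. Below them by mean share stood miR-200b (3.61%), miR-21-5p (3.36%), miR-141 (3.17%), the miR-30 family (3.13% ± 0.803; SD, n = 12), miR-191 (2.80%) and miR-26a (1.50%). Grouped by name, which joins miR-26a with miR-26b-5p, the miR-26 family held 2.96% and stood above miR-191. The miR-30 family, whose members restrain mesenchymal change of epithelia, had 5 members: miR-30a-5p, miR-30d and miR-30e-5p were highest in H6, and miR-30b-5p and miR-30c-5p in H7. These 10 families held 86.9% of the reads. The 2 members of the miR-125 family are shown because their reads, unlike those of the miR-10 family, could be told apart.
miR-125b: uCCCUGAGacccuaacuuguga
miR-125a: uCCCUGAGacccuuuaaccugug

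Several miRNAs of near-identical sequence had near-identical counts, so their separate levels are uncertain. In 15 pairs with at least 12 reads in all per miRNA, the counts differed by at most 5% in every library, and in 8 of these pairs they were identical. The pairs formed 13 groups of 27 miRNAs. All 12 of these pairs with both sequences matched differed at 0 or 1 position, allowing an end shift of up to 2 bases. In all, 30 pairs differed at 0 or 1 position. Below the minimum of 12 reads, 2 more pairs had identical counts, miR-133a-3p and miR-133b (10 reads each) and miR-450a and miR-450c-5p (7 reads each). miR-10a-5p (31370 ± 7784 CPM) and miR-10b (31339 CPM) differed by at most 0.160% in any library, although miR-10a-5p comes from chromosome 12 (24833694 to 24833715, minus strand) and miR-10b from chromosome 15 (81951653 to 81951674, plus strand). The largest difference was 1.64% for miR-29c and miR-29a-3p (7451 and 7372 CPM), 0.161% for miR-103 and miR-107 (1684 and 1683 CPM), and 0.592% for miR-99a-5p and miR-100 (848 CPM each). Reads of such copies may not have been separated, and the sum over a group may count reads more than once. The miRNAs after the first of each group held 4.21% of the reads, and miR-10b alone held 3.13%. The copies concerned are shown with the seed in capitals.
miR-10a-5p: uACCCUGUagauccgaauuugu
miR-10b: uACCCUGUagaaccgaauuugu
miR-103: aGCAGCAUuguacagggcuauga
miR-107: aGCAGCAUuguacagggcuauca
miR-29c: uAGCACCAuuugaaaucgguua
miR-29a-3p: cUAGCACCaucugaaaucgguua

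RefSeq starts miR-29a-3p 1 base earlier than miR-29c, so that bases 2 to 8 place them in different seed families (0.847% and 0.737% of the reads), although the miRNAs share a core. In contrast to these copies, let-7c and let-7a also differ at 1 position, but their counts differed by 2.69 to 4.28 times. With 1 miRNA kept per group, the 10 most abundant held 74.1% of the reads and the let-7 family 52.8%.

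The spread between libraries is that of boar and library preparation together, since each boar had 1 library. Over the 114 miRNAs with a mean of at least 100 CPM, the median coefficient of variation between libraries was 32.2%, with quartiles of 25.2% and 46.5%, while counting error alone gives at most 3.91% for any of them. The highest library was 2.88 times the lowest for the median miRNA, under 2 times for 19 miRNAs and at least 5 times for 17. The spread grew towards low levels. Its median was 26.6% for miRNAs above 10000 CPM, 31.6% for 1000 to 10000 CPM, 34.5% for 100 to 1000 CPM, 52.5% for 10 to 100 CPM and 80.7% for 1 to 10 CPM, where counting error alone gives 24.3%. The median Spearman correlation over 66 pairs of libraries was 0.964 across the 331 miRNAs with reads, between 0.953 (H1 and H4) and 0.981 (H7 and H10), and 0.951 across the 114 abundant miRNAs, where H10 and H11 were least alike at 0.874. These are correlations across miRNAs, which are not independent replicates.

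Single libraries did not contribute equally to the spread. Of the 114 miRNAs, H7 and H10 each had the highest level of 27 and H6 of 19, whereas H8 had the highest level of 1. H9 had the lowest level of 34 and H8 of 18. With TMM factors, H7 and H10 each had the highest level of 17, and H9 of 26. H7 and H10 then also had the lowest level of more miRNAs than any other library, 22 and 21 where they had 4 and 8 by column totals, and H9 of 7, so that these counts depend on the scaling too. Of the 26 miRNAs with a coefficient of variation above 50%, which together held 7.34% of the reads, 16 were highest in H10 and 6 in H7. With H7 and H10 left out, 10 of 115 miRNAs were above 50% and the median was 29.0%.

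**Figure D3:**
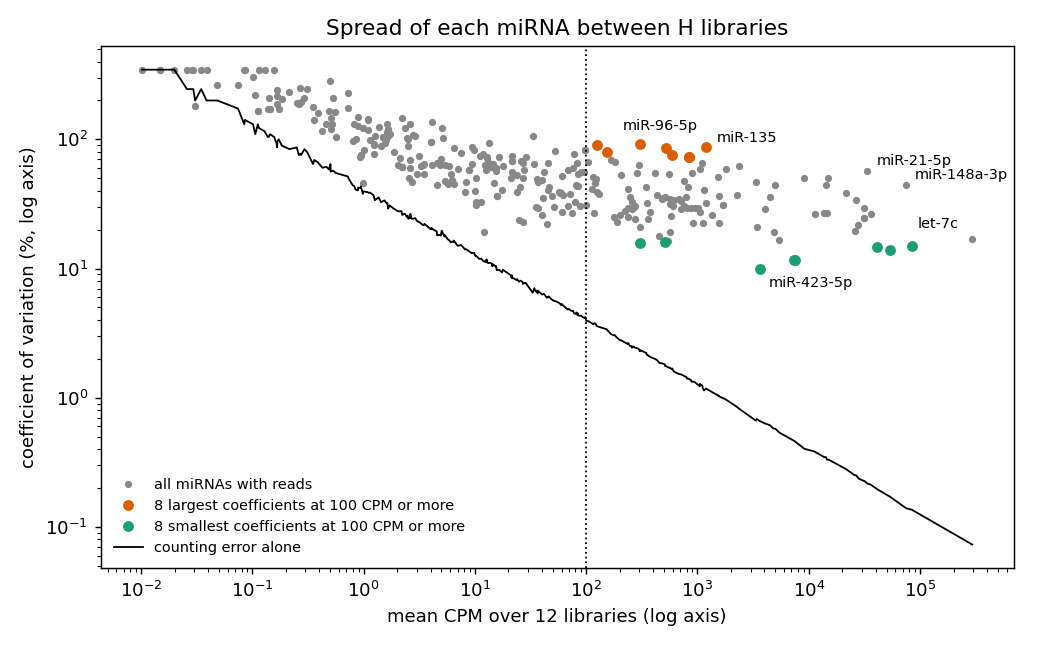
Coefficient of variation (%, log axis) of each miRNA with reads against its mean CPM over 12 H libraries (log axis); the line is the value that counting error alone gives and the dotted line marks 100 CPM. Above 100 CPM all miRNAs lie above the line, from 9.87% for miR-423-5p to 91.8% for miR-96-5p.

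By column totals, the steadiest miRNA was miR-423-5p, from an intron of NSRP1 on chromosome 12 (46211534 to 46211556, plus strand). Its level was lowest in H8 (3043 CPM), had a median of 3650 CPM and was highest in H3 (4280 CPM), a coefficient of variation of 9.87%. It is often used as a reference in measurements of circulating miRNAs. The other 7 of the 8 smallest coefficients belonged to miR-29c (11.6%), miR-29a-3p (11.7%), let-7f-5p (14.0%), let-7e (14.6%), let-7a (14.9%), let-7d-3p (15.8%) and miR-30e-3p (16.0%). Members of the let-7 name made up 4 of these 8 and 8 of the 114 miRNAs. Other members varied more, with 19.7% for let-7i-5p, 28.8% for let-7g and 43.1% for let-7d-5p. Without H7 and H10, 5 of the 8 were the same by column totals. let-7c then had the smallest coefficient of all miRNAs with at least 100 CPM. However, let-7c itself made up 29.5% of the total that scales it, as a mean of 12 libraries. The coefficients of single miRNAs depend on the scaling, since the TMM factors lay between 0.667 (H9) and 1.35 (H7). Their order with TMM factors is not given here.

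The largest coefficients belonged to miRNAs of moderate level that were high in H7 and H10. miR-96-5p had a median of 182 CPM, from 84.4 CPM in H11 to 849 CPM in H7 and 867 CPM in H10, a coefficient of 91.8%. miR-32 reached 395 CPM in H7 and 312 CPM in H10 around a median of 88.7 CPM (89.8%), and miR-135 reached 3243 and 3472 CPM around a median of 873 CPM (86.9%). In each case the other libraries were lower. The highest of them were H6 for miR-96-5p (524 CPM) and miR-135 (1125 CPM), and H12 for miR-32 (114 CPM). miR-32 reached the limit of 100 CPM only through H7 and H10, since its mean was 124 CPM with them and 77.8 CPM without them. miR-374a-5p, from the X chromosome, had 1482 CPM in H7 and 1465 CPM in H10 with a median of 333 CPM (85.1%). miR-22-3p, known from heart and muscle but broadly expressed, had 1585 and 1346 CPM with a median of 478 CPM (75.4%).

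In this set, miR-99a-5p and its near-identical copy miR-100 were highest in H10 (2613 and 2610 CPM), with 1353 CPM of miR-99a-5p in H7, and had coefficients of 72.5% and 72.4%. miR-375, a marker of neuroendocrine and glandular epithelium, was high in H10 and H6 and not in H7. It was at 373 CPM in H10 and 360 CPM in H6, but at 54.4 CPM in H7, and was lowest in H12 (27.1 CPM), a coefficient of 79.5%. When H7 and H10 were left out, the coefficient of miR-374a-5p was 18.2%, that of miR-99a-5p 27.9%, that of miR-135 32.4% and that of miR-32 32.5%, whereas miR-375 kept 75.8%, miR-96-5p 64.0% and miR-22-3p 48.2%. Thus 2 of the 8 largest coefficients remained among the largest 8. The sequences of the 4 miRNAs with the largest coefficients are shown, and they had no seed in common.
miR-96-5p: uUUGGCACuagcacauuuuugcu
miR-32: uAUUGCACauuacuaaguugc
miR-135: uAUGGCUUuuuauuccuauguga
miR-374a-5p: uUAUAAUAcaaccugauaagug

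Neighbouring hairpins, which are often transcribed together, did not always vary together. Hairpins within 10 kb of each other on a strand were treated as a cluster. miR-182, miR-183 and miR-96 lie on the plus strand of chromosome 18, miR-183 at 18982274 to 18982296, miR-96-5p at 18982516 to 18982538 and miR-182 at 18986840 to 18986863, and are known from sensory and epithelial cells. miR-182 had a median of 7422 CPM, was lowest in H4 (4529 CPM) and was highest in H9 (18713 CPM), and the level of miR-183 moved with it. The ratio of miR-182 to miR-183 was 2.72 ± 0.337 (SD, n = 12), between 2.23 in H1 and 3.56 in H11. In contrast, the ratio of miR-182 to miR-96-5p lay between 5.93 in H10 and 193 in H11, with a median of 32.6. The highest ratio was thus 32.6 times the lowest, against 1.60 times for miR-182 and miR-183. The sequences are shown because the 3 miRNAs have similar but not identical seeds.
miR-182: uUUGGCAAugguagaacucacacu
miR-183: uAUGGCACugguagaauucacug

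**Figure D4:**
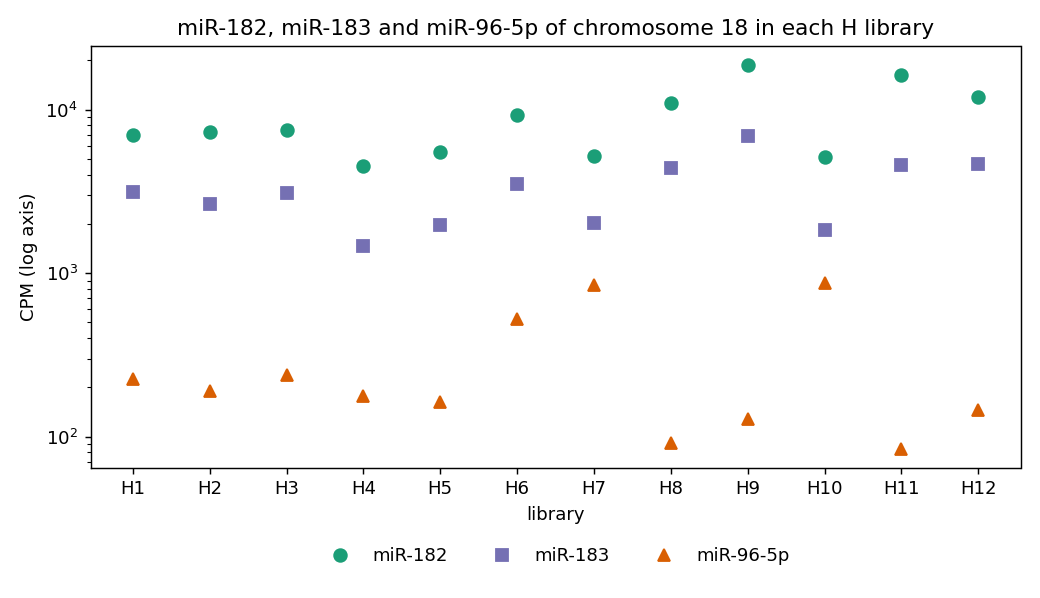
CPM (log axis) of miR-182 (circles), miR-183 (squares) and miR-96-5p (triangles) in each of the 12 H libraries. miR-182 and miR-183 rise and fall together, with ratios of 2.23 to 3.56, while miR-96-5p is highest in H10 and H7, at 867 and 849 CPM.

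A similar separation was seen at let-7c. Its neighbour miR-99a-5p lies on chromosome 13 at 181302494 to 181302515 on the same strand. The ratio of let-7c to miR-99a-5p had a median of 526 and was lowest in H10 (74.0) and highest in H12 (659), where the copy miR-100 limits how far miR-99a-5p can be measured alone. miR-191 and miR-425-5p, both in an intron of DALRD3 on chromosome 13, had a ratio of 5.53 in H10 and 51.1 in H11 with a median of 17.2. The ratio of miR-191 to the other arm of that hairpin, miR-425-3p, varied less, between 80.5 and 211. The cluster of let-7e, miR-125a and miR-99b on the minus strand of chromosome 6 was not uniform. let-7e was 1.04 times miR-125a in H4 and 4.34 times in H12, with a median of 2.18, whereas it was 7.64 to 18.6 times miR-99b. The ratio of miR-27a to miR-23a on chromosome 2 lay between 1.33 and 3.33. For miR-27b-3p to miR-23b on chromosome 10 it lay between 1.34 and 3.06. These ratios may not be separate measurements, since the miRNAs of both clusters differ at 1 position and had similar counts. miR-27b-3p had 1.05 to 1.11 times the reads of miR-27a, and miR-23b 1.04 to 1.23 times those of miR-23a. The ratio of miR-221-3p to miR-222 on chromosome X lay between 2.42 and 6.37. On the X chromosome, miR-532-5p was 2.49 to 5.12 times miR-500-3p and 4.32 to 11.3 times miR-362. The ratio of miR-30d to miR-30b-5p on chromosome 4 varied more, from 5.85 in H7 to 30.3 in H1. Stability of the mature strand, its trimming and its capture by the library kit can all differ between miRNAs of a cluster, and were not tested here.

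The abundant miRNAs shared features of sequence. Of the 17 of the 20 most abundant miRNAs with a matched sequence, 16 began with U, the base that Argonaute proteins are known to prefer at the 5′ end, and miR-191 began with another base. Over all 286 matched miRNAs, 137 (47.9%) began with U, and they held 91.9% ± 1.03 of the matched reads (SD, n = 12). Leaving out the let-7 seed, this share was 81.9% ± 1.28 (SD, n = 12). The mean GC content was 49.1% over the 286 miRNAs and 41.6% when weighted by reads. Counted by miRNA it differed little with level, at 47.7% for means of at least 100 CPM and 49.9% below. In the genome, 133 of the miRNAs with a single locus lay in introns and held 43.1% of the reads, and 105 were intergenic and held 32.04%. let-7c made up most of the intronic share, which was 13.6% without it. The median level was 44.4 CPM for intronic and 33.1 CPM for intergenic miRNAs.

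Lists of miRNAs known as markers of cell types were then examined. Fewer cells of a type and less RNA per cell cannot be told apart in such pooled material. The epithelial list was by far the most abundant. Of its 7 entries the table holds miR-200b, miR-141, miR-429 and miR-205, and all 4 had reads in every library. Their sum was lowest in H9 (44084 CPM), had a median of 70097 CPM and was highest in H7 (116662 CPM), a mean of 7.28% of the reads and of 6.53% without H7 and H10. miR-200b contributed 36084 CPM and miR-141 31677 CPM. miR-429, known as a member of the same family as miR-200b but not joined with it here for want of a matched miR-200b sequence, had a mean of 5023 ± 2242 CPM (SD, n = 12). miR-205, which marks basal and squamous epithelium, had 58.1 ± 22.1 CPM (SD, n = 12).

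Markers of blood cells were scarce. The erythroid miRNAs miR-486, miR-451 and miR-144 had means of 1.55, 1.09 and 0.172 CPM, and their sum lay between 0 in H2 and H9 and 7.78 CPM in H7, with a median of 2.62 CPM. No erythroid marker had reads in every library. Of the leukocyte list, 6 of 7 miRNAs had reads, and they summed to a median of 111 CPM, from 50.3 CPM in H9 to 170 CPM in H6. Its leading members were miR-142-3p (36.7 ± 17.2 CPM), miR-146a-5p (35.8 ± 17.7 CPM) and miR-155-5p (23.8 ± 12.5 CPM; SD, n = 12 each). miR-150 and miR-142-5p were at 6.43 and 5.73 CPM. miR-223, the defining miRNA of granulocytes, had reads in 9 of 12 libraries and a mean of 5.03 CPM, and miR-146a-3p had none.

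Vessel wall and muscle markers differed. miR-143-3p, a marker of smooth muscle and stroma and among the most abundant miRNAs of many tissues, had 14 reads in all 12 libraries together, and miR-145-5p had 1 read, while miR-143-5p and miR-145-3p had none. The endothelial miR-126-3p, from an intron of EGFL7, had a mean of 4833 ± 920 CPM (SD, n = 12), from 3415 CPM in H8 to 6426 CPM in H1, and miR-126-5p had 351 CPM. Of the striated muscle list, miR-499-5p from an intron of MYH7B had 89.9 ± 50.1 CPM (SD, n = 12), whereas miR-206 had 3.41 CPM, with reads in all 12 libraries. miR-1 had 2.22 CPM, was highest in H1, and had 1.33 CPM without H1. miR-133a-3p and miR-133b had 0.144 CPM each, and 0.0780 CPM without H6. The means of miR-133a-3p and miR-133b were below the floor, and those of miR-206 and miR-1 were low but above it.

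Of the remaining tissue lists, the liver miRNA miR-122-5p had a median of 65.1 CPM, from 30.2 CPM in H10 to 259 CPM in H11, and miR-122-3p had no read. In the neural list miR-9 had a mean of 98.3 ± 81.7 CPM (SD, n = 12), shared by its copies miR-9-1 and miR-9-2, and miR-124a had no read. miR-34c, known from multiciliated and male germ cells, had a median of 77.5 CPM, from 24.4 CPM in H9 to 169 CPM in H6. The gonadal miRNA miR-202 was found on both arms, with 21.5 CPM for miR-202-3p and 16.6 CPM for miR-202-5p, and its sum was lowest in H3 (10.8 CPM) and highest in H7 (92.3 CPM). miR-371-5p, of the pluripotent list, had no read, and the table holds no entry of the X-linked testis cluster of miR-506 to miR-514. The list of miR-17 to miR-92 names, whose clusters are known from dividing cells and which here also takes in miR-92b from outside them, summed to a median of 1689.7 CPM, from 793 CPM in H9 to 4415 CPM in H10, and to a median of 1446 CPM without H7 and H10. miR-92a (1107 ± 726 CPM; SD, n = 12) and miR-20a-5p (297 ± 188 CPM; SD, n = 12) led them.

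Of the 40 names listed for the imprinted DLK1-DIO3 cluster the table holds 7, of which 6 had reads, and their sum reached at most 8.69 CPM (H6). Among miRNAs with high numbers, miR-7134-3p was at a mean of 1364 CPM. On 52 hairpins with both arms in the table and at least 100 reads in every library, the 5′ arm held more than 50% of the reads in all libraries for 27 and the 3′ arm for 18.

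Finally, 4 relations across the 12 libraries were tested with Pearson's r and Spearman's rho, two-sided permutation tests with 100000 permutations and Benjamini-Hochberg adjustment over the 4. The total number of reads was not related to the number of miRNAs detected (r = -0.110, permutation p = 0.735, adjusted p = 0.735; rho = -0.243, p = 0.441, adjusted p = 0.441). Without H9 and H12, the libraries farthest from the median total, r was -0.0543. The total was related to the share of reads in the 10 most abundant miRNAs (r = 0.829, permutation p = 0.000920, adjusted p = 0.00368; rho = 0.832, p = 0.00145, adjusted p = 0.00580). Without H9 and H12, r was 0.735 with an unadjusted p of 0.0157 and an adjusted p of 0.0630 (n = 10). When H7 and H10 were left out instead, r was 0.919 (adjusted p = 0.00100). The part of depth in the concentration of the reads was not tested.

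The sum of erythroid and leukocyte markers was nearly all leukocyte, with means of 2.81 CPM for the erythroid and 113.6 CPM for the leukocyte list. This sum was related to the number of miRNAs detected (r = 0.616, permutation p = 0.0340, adjusted p = 0.0453; rho = 0.614, p = 0.0371, adjusted p = 0.0495). Without H6 and H9, r was 0.615 with an adjusted p of 0.0858, so r was nearly the same and the adjusted p was above 0.05 with 10 libraries. When H7 and H10 were left out, r was lower, at 0.444 (adjusted p = 0.261). The same sum was related to the epithelial markers (r = 0.665, permutation p = 0.0151, adjusted p = 0.0302; rho = 0.671, p = 0.0199, adjusted p = 0.0398). Here H7 and H10 were the libraries farthest from the median, and without them r was 0.603 with an adjusted p of 0.0858 (n = 10). Shares of a common total are not independent, and a fall of let-7c raises the share of every other miRNA. The part of blood cells in the spread between libraries was not tested.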

How the data were processed

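Values are raw counts of small RNA reads on mature miRNAs, as the authors deposited them, for 12 libraries, 1 per boar. By the study's methods, adapters were removed with cutadapt, reads of other small RNAs and repeats were filtered with Bowtie, and miRNAs were identified with miRDeep2 on the pig genome and miRBase. The processing notes name susScr11, the assembly called Sscrofa11.1 in RefSeq. All values are whole numbers.

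CPM was computed from column totals (Python 3.11.15; NumPy 2.4.6; pandas 2.3.3; SciPy 1.17.1; figures with matplotlib 3.10.9). A miRNA was detected with at least 1 read, and the coefficient of variation (SD divided by mean) was computed for means of at least 100 CPM. Mature sequences came from RefSeq on Sscrofa11.1, matched by name for 269 miRNAs and by name and hairpin arm for 17. TMM factors and size factors, computed in R 4.3.3, served as alternatives to column totals, with thinning to the smallest total, other thresholds and leaving out each library. No model was fitted to compare groups. Leaving out H7 and H10, keeping 1 miRNA of each near-identical group and using TMM factors for the counts of miRNAs per library and the principal components were chosen after the data were seen. Floors cover counting error only. The functions were tested on simulated data.

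The text names the 20 most abundant miRNAs, the members of the 10 leading seed families, the 8 largest and 8 smallest coefficients of variation, miRNAs at ranks 1 to 3 in any library, and up to 8 members of each list. Near-identical copies, cluster neighbours and the few other miRNAs named were chosen after their values were seen. Members and lists were chosen with earlier results of these data known.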

Additional observations from a re-analysis of the deposited data

How the results depend on the processing

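No paired analysis was possible because no groups were compared. Leaving out each library in turn gave 280.9 to 284.9 miRNAs detected, 70.7% to 72.0% of reads in the 10 most abundant, 28.9% to 30.4% in let-7c, and a median coefficient of variation of 30.7% to 33.8%. Thinning to the smallest total gave 281 miRNAs detected. The mean number of miRNAs in a library was 274 with at least 3 reads, 259.9 with at least 1 CPM and 249 with at least 10 reads. The median coefficient of variation of 32.2% was 28.6% with TMM factors (edgeR 4.0.16), 27.6% with size factors (DESeq2 1.42.0), 38.7% for means of at least 10 CPM, 58.4% without a filter and 29.0% without H7 and H10. The median Spearman correlation was 0.951 for the miRNAs with at least 100 CPM, and Pearson's r on log2(CPM + 1) was 0.979. The miR-10 family held 3.28% instead of 6.27% with near-identical copies collapsed. Without let-7c in the total, the next 10 miRNAs held 63.5% and the let-7 family 30.2%, by construction of the smaller total. The relation of total reads with the share of the 10 most abundant had r = 0.735 without the 2 farthest libraries. The relation of blood cell markers with miRNAs detected had r = 0.615 without the 2 farthest libraries and 0.444 without H7 and H10, and that of epithelial with blood cell markers had r = 0.603 in both cases. In each of these cases 10 libraries remained and the adjusted p was above 0.05. With TMM factors, the miRNAs more than 2-fold above the median fell from 20 to 6 in H7 and from 25 to 16 in H10, and those more than 2-fold below it from 16 to 2 in H9. In turn, those above rose from 2 to 7 in H9, and those below from 2 to 7 in H7 and from 0 to 5 in H10. Of all 331 miRNAs with reads, the means of 46 changed more than 1.5 times without a single library, and none of these was above 4.09 CPM. Among 83 miRNAs chosen by the naming rule, 11 did so: miR-1 (1.33 CPM without H1), miR-370 (0.169 without H4), miR-432-5p (0.110 without H2), miR-144 (0.109 without H6), miR-323 (0.0836 without H8), miR-143-3p (0.102 without H9), miR-133a-3p and miR-133b (0.0780 without H6), miR-499-3p (0.0462 without H12), miR-127 (0 without H3) and miR-145-5p (0 without H5). Leaving out H7 and H10, collapsing near-identical copies and using TMM factors for the 2-fold counts and the principal components were chosen after the data were seen. Depth limits the detection of miRNAs below 0.716 CPM.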

Other observations

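Some miRNAs of moderate level were high in a single library or a pair, chosen here after their values were seen. H11 had the highest level of miR-122-5p, the leading miRNA of hepatocytes, with 259 CPM against 89.8 CPM in H5, the next highest. H11 was also highest for miR-192, known from liver, kidney and gut epithelium, with 471 CPM against 295 CPM in H6. The remaining 11 libraries had 30.2 to 89.8 CPM of miR-122-5p.

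H3 and H4 stood out for miR-9, with 275 and 249 CPM against 114 CPM in H6, the next highest, and 16.9 CPM in H9, the lowest. The same pair led miR-190a, from an intron of TLN2 on chromosome 1, with 477 CPM in H3 and 303 CPM in H4 against 249 CPM in H10 and 69.8 CPM in H8. The mean of miR-9 over 12 libraries, 98.3 CPM, was below the limit of 100 CPM used for the spread. Of the miRNAs above it, miR-192 had a coefficient of variation of 69.2% and miR-190a of 67.1%. Beyond the number of the library, the labels give nothing that differs between these boars.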
